A study of Homo sapiens with 24 samples.

Results

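A375, an established human melanoma line, was compared between 24 and 48 h of culture under treatment, in 18 of the 24 libraries of the series. The 18 libraries were those of 3 treatments with 3 libraries at each time: dmso (the solvent), Nucleotide (nucleotides alone), and A77plusNucleotides (A771726 at 25 µM given with nucleotides). A771726 is leflunomide's active metabolite and inhibits DHODH, the mitochondrial enzyme that makes orotate for pyrimidine nucleotides. The 6 libraries of A771726 alone, the treatment that blocks pyrimidine synthesis with no supply from outside, were left out by rule, so the 9 libraries at 48 h were set against the 9 at 24 h with treatment as a block. The sources used here give neither the identity nor the dose of the nucleotides. All 18 libraries come from this one line, and the labels leave unsaid whether replicates came from different dishes, so a p-value here reflects the scatter among libraries alone. Because each library has a single time, the hours of treatment, cell density, age of the medium, harvest and library preparation cannot be told apart.

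Cells kept in a dish multiply, fill the surface, use up nutrients and growth factors and lay down matrix. Genes of DNA replication are switched on by E2F factors as cells pass from G1 into S phase, and the replication-dependent histone genes are expressed together with DNA synthesis. The messages of those histone genes end in a conserved stem-loop in place of a poly(A) tail, which SLBP binds, so they are seen in full only in libraries made without poly(A) selection. Adherent cells also read out their shape and attachment through integrins and through the YAP and TEAD factors, whose targets include CTGF and ANKRD1.

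RNA had been depleted of ribosomal RNA, and the deposited unit was FPKM (fragments scaled by transcript length and library size) without counts, so the depth of each library is unknown. The FPKM of a library summed to 573390 to 773002 at 24 h and 588438 to 722292 at 48 h, and the mean sum was lower at 48 h (two-sided exact permutation test within treatments, p = 0.00775). The number of genes listed at 0 averaged 7442 ± 338 (SD, n = 9) at 24 h and 7318 ± 202 at 48 h (exact permutation p = 0.364). Replicate 2 of A77plusNucleotides at 24 h and replicate 3 of Nucleotide at 48 h stood apart from the other 16 libraries on the first principal component. Some of the results that move without this pair of libraries are given both ways, and others are not. Of the melanocyte lineage markers, 4 of 9 were expressed well enough to be tested and the other 5 averaged under 1 FPKM. The summed FPKM of all 9 was 66.1 to 88.5 at 24 h and 82.9 to 138 at 48 h. Few markers of other cell types could be tested, and 3 keratinocyte and 2 leukocyte markers were at 0 in every library. The summed FPKM was 12.7 to 17.6 at 24 h and 11.8 to 14.8 at 48 h for 12 keratinocyte markers, 3.09 to 3.94 and 3.79 to 4.60 for 12 markers of fibroblasts and endothelium, and 7.30 to 8.74 and 9.34 to 11.6 for 15 leukocyte markers. The part of other cells in any result was not tested. In bulk RNA, fewer cells of a kind and less RNA per cell cannot be told apart.

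Between 24 and 48 h, RNA of nearly all replication-dependent histones and of most tested G1/S genes fell, as did THBS1, DKK1 and the amino acid transporter SLC7A5. RNA of LOXL4, ITGB3, MARCKS, SCD and 8 of 18 integrin and cadherin genes rose. The test was limma on log2(FPKM + 1) over 11392 genes averaging 1 FPKM or more, and a gene was called at a Benjamini-Hochberg adjusted p under 0.05. Differences are 48 h minus 24 h on that log2 scale, with ± the standard error where given, and FPKM are mean ± SD over the 9 libraries of a time. At 48 h, 1093 genes (9.59% of those tested) were higher and 823 genes (7.22%) were lower. The changes were small: the median log2 difference, 48 h minus 24 h, was 0.30 among genes called higher and -0.28 among genes called lower. Of the called genes, 7 rose by log2 1 or more and 5 fell by as much. All 9 libraries at 48 h lay above all 9 at 24 h for 242 genes (2.12%) and below them for 91 genes (0.799%). Lower genes were 43.0% of the calls, against 56.2% after median-of-ratios scaling, 54.9% at a minimum mean of 5 FPKM, 52.8% in dmso and Nucleotide alone, and 12.4% after scaling every library to the same sum. That last scaling moved the median of all tested genes from 0.01 to 0.12, so every difference under it has to be read against that shift. With all 24 libraries in the fit, whose typical standard error was 0.211 in place of 0.0826, only 8 genes were higher and 5 lower. In that fit the lists below had no more than 1 member called each. Without the 2 libraries that stood apart, 1691 genes were higher and 1505 lower, and without replicate 2 of A77plusNucleotides at 24 h alone 1466 and 1351.

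Of the gene lists examined, the largest median difference was that of the replication-dependent histones, the core and linker histones that package newly made DNA. Of 56 tested, 53 fell and none rose, beside 7.22% of all tested genes called lower. All 56 had a negative difference, with a median of -0.68 against 0.01 over all tested genes. Their summed FPKM made up 5.48 ± 0.57% (SD, n = 9) of a library's total at 24 h and 3.80 ± 0.37% at 48 h. The shares ran from 4.32% to 6.21% at 24 h and from 3.15% to 4.27% at 48 h, so that the times did not overlap. The exact permutation p was 0.00025, the smallest this design allows. This share was added to the planned library measures and uses the same libraries and genes as the calls, so its p-value is not separate support. For 13 of the 56 genes, every library at 48 h lay below every library at 24 h, beside 0.799% of all tested genes. All settings but the fit of 24 libraries called between 49 and 55 of them lower.

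The printed 3′ ends of 4 of these genes, all on chromosome 6, show the element that sets the family apart, with the stem-loop in capitals. The sequences are from GENCODE transcripts on GRCh38, which is not the build of the submitters.
HIST1H2AE: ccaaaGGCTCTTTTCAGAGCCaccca
HIST1H2BD: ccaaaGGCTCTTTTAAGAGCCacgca
HIST1H3E: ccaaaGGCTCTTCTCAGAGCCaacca
HIST1H4B: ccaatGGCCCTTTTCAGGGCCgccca
The 16 capital bases of each form a stem of pairing ends around a short loop, and the 4 are alike without being identical. The histone stem-loop was searched on the transcript strand in the last 150 bases and found in 10 of the 56 genes, in none of 11 replication-independent histone genes, and in 24 of 57133 annotated genes (0.042%). A missing match says only that these bases are not in the annotated window. The 4 genes printed changed by -0.76 (HIST1H2AE), -0.46 (HIST1H2BD), -0.53 (HIST1H3E) and -0.71 (HIST1H4B) on the log2 scale, with HIST1H2BD at -0.21 and not called after quantile normalization (limma adjusted p = 0.109).

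Members of every histone class fell. All 14 H2A and all 10 H3 genes fell, with medians of -0.75 and -0.59. Of 16 H2B genes 15 fell (median -0.72), of 11 H4 genes 10 fell (-0.65), and of 5 H1 genes 4 fell (-0.46). HIST1H1A, a linker histone, fell most: 48.96 to 92.02 FPKM at 24 h (median 75.8) and 21.4 to 37.9 at 48 h (median 31.6). Its log2 difference was -1.25 ± 0.112 (limma adjusted p = 2.27e-06), and no library at 48 h reached the lowest at 24 h. HIST1H2BB fell from 877 ± 162 to 424 ± 66.6 FPKM, HIST4H4 from 165 ± 22.8 to 84.98 ± 13.7 FPKM, and HIST1H3A from 474 ± 73.4 to 248 ± 24.98 FPKM, again with no overlap. HIST3H2A (-1.05), HIST1H2BJ (-0.91), HIST3H2BB (-0.91), HIST2H2AA3 (-0.90), HIST1H4I (-0.89), HIST1H2BG (-0.84) and HIST2H4B (-0.84) completed the histones among the 14 largest falls, on the log2 scale. Histone genes share long stretches of near-identical sequence, and HIST2H2AA3 and HIST2H4B each have a near-identical copy. The split of reads among members is therefore uncertain, and how far the summed FPKM depends on it was not tested. The replication-independent histone genes, which are made throughout the cell cycle and carry poly(A) tails, were chosen for comparison after the values were seen. Of 11 tested, 2 were higher and 1 lower, beside 9.59% and 7.22% of all tested genes, with a median of -0.04. Without the 2 libraries that stood apart, 2 were higher and 4 lower, beside 1691 and 1505 of 11392 tested genes. The abundant H2AFZ, H3F3B and H2AFY had lower median FPKM at 48 h (480 to 415, 281 to 244 and 95.0 to 82.6). For each, all 9 libraries at 48 h lay below the 24 h median. H2AFJ, with a median of 1.29 FPKM at 24 h and 1.76 at 48 h, rose by 0.27 with adjusted p = 0.00618 in limma. The H2AFJ call was lost in dmso and Nucleotide alone (adjusted p = 0.0503) and after quantile normalization (0.0560).

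**Figure D1:**
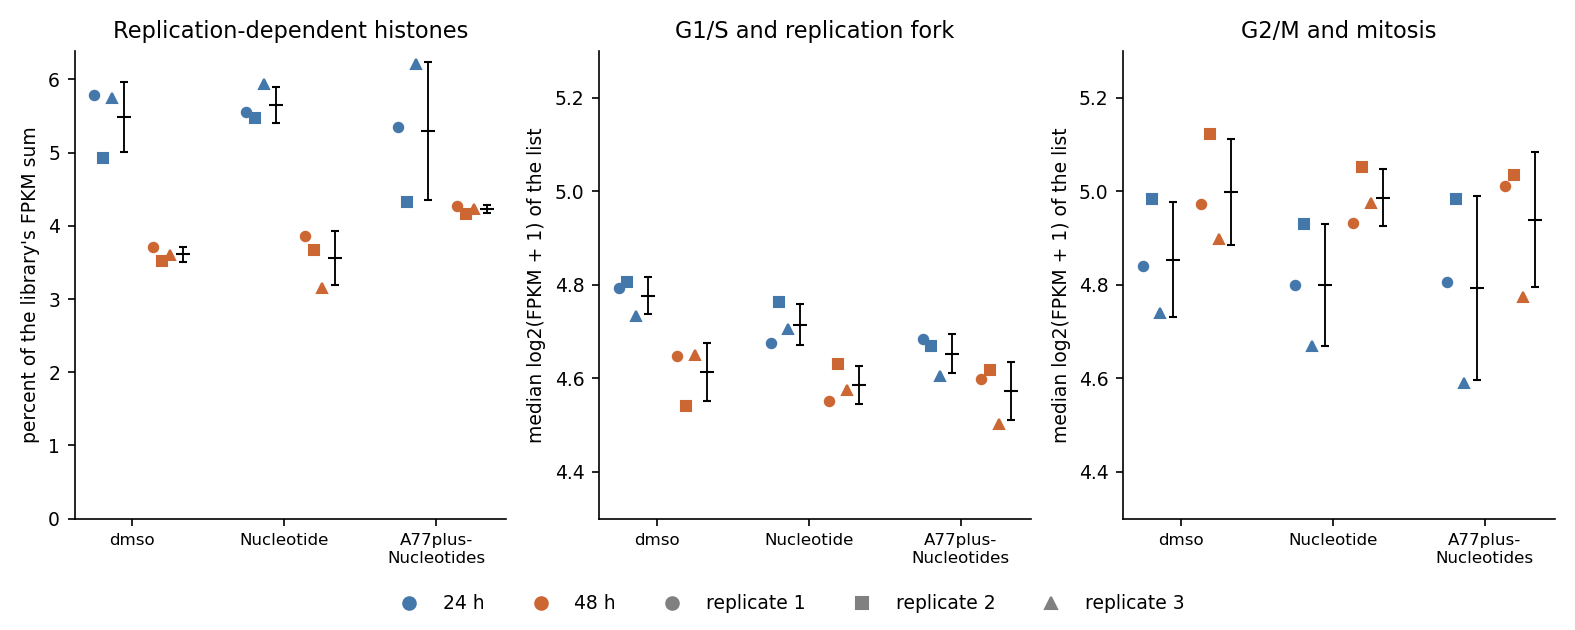
Left, the summed FPKM of the replication-dependent histones as a percent of a library's FPKM sum. Middle and right, the median log2(FPKM + 1) of the G1/S and of the G2/M list on axes that do not start at 0. Points are libraries (blue 24 h, orange 48 h, shapes are replicate numbers) and the black bar beside them is the mean ± SD of 3. The histone share lies between 4.32% and 6.21% at 24 h and between 3.15% and 4.27% at 48 h.

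The fall of histones was seen in each treatment. The list's median difference was -0.75 in dmso, -0.92 in Nucleotide and -0.36 in A77plusNucleotides, where 30, 39 and 5 members passed the limma test within the treatment. Without the pair of libraries that stood apart, the medians were -0.75, -0.77 and -0.57. No histone gene passed the test of a difference between treatments.

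Genes of the G1/S transition and the replication fork fell as well: 21 of 36 were called lower and none higher. All 36 differences were negative, with a median of -0.28, and 7.22% of all tested genes were lower. RRM2, the ribonucleotide reductase subunit that makes deoxynucleotides, had 70.4 to 115 FPKM at 24 h (median 83.4) and 48.8 to 71.4 at 48 h (median 53.3). Its difference was -0.60 ± 0.09403 (limma adjusted p = 0.000298). The cyclin CCNE2 fell by 0.51, the transcription factor E2F1 by 0.50, and the helicase subunit MCM5 by 0.44, on the log2 scale. E2F1 went from 22.3 ± 4.701 to 15.3 ± 2.77 FPKM. The origin licensing factors CDC6 (-0.42, adjusted p = 5.21e-05) and ORC1 (-0.36, adjusted p = 0.000102) were the 2 members whose libraries did not overlap between times. Over all tested genes, 0.799% lay wholly below at 48 h. PCNA, the sliding clamp, went from 164 ± 14.02 to 127 ± 16.6 FPKM, a log2 difference of -0.38. SLBP, whose protein binds the stem-loop printed above, fell by 0.27 (adjusted p = 0.00722), a call lost after scaling to equal sums (adjusted p = 0.09005). The number of lower members was 13 after scaling to equal sums, where the median of -0.17 still lay 0.28 below that of all genes.

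Promoters of a pair of these genes show the E2F element (TTTCGCGC, TTTGGCGC or TTTCCCGC on either strand, in capitals) just before the start site, from RefSeq on GRCh38.p14. E2F1 is shown at chr20:33686386-33686431 and PCNA at chr20:5126648-5126707, both on the minus strand.
E2F1: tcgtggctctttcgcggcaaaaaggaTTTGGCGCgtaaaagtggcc
PCNA: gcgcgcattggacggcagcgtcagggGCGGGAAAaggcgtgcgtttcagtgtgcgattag
The capitals read TTTGGCGC in the first and the reverse complement of TTTCCCGC in the second. The element was in 10 of the 17 called members with a promoter in the table and in 10 of the 15 members not called, against 3.30% of 27305 promoters of the same 300 bases. The element was thus present among members that passed and members that did not. A match describes the letters of the window and is not a bound site.

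No gene of G2 and mitosis was called lower. Of 34 tested, 3 were higher, a share near the 9.59% of all tested genes. Of the 34 differences 27 were positive, with a median of 0.12. The kinesin KIF20A (0.22) and the checkpoint kinase BUB1 (0.25) rose, the first of them not called in dmso and Nucleotide alone (0.15, adjusted p = 0.0740). BUB1 went from 13.1 ± 1.45 to 15.7 ± 0.964 FPKM. The count of higher members depended on the fit. It was 17 after scaling to equal sums and 15 without the pair of libraries that stood apart. A replicate block gave 11, and dmso and Nucleotide alone gave 1. In the same order, these fits called 2401, 1691, 1736 and 758 of all 11392 tested genes higher, against 1093 in the main fit. Genes of cell cycle exit and quiescence had 7 of 24 members called higher and 1 lower (median 0.14). The shares of all tested genes were 9.59% and 7.22%, the latter above that of the list. The cyclin-dependent kinase inhibitor CDKN1C rose by 0.49, from 6.59 ± 1.25 to 9.61 ± 1.26 FPKM. RBL2, the pocket protein p130 of resting cells, rose by 0.33, YPEL3 by 0.40 and PDK4, which restrains pyruvate dehydrogenase, by 0.40. The lower member was TXNIP, a thioredoxin-binding arrestin (-0.31), whose call was lost in dmso and Nucleotide alone (adjusted p = 0.0521) and after scaling to equal sums (0.0649). The p53 target CDKN1A, the kinase inhibitor p21, was not called (-0.10 ± 0.0791, adjusted p = 0.44).

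Ribosome production factors of the nucleolus fell in part, with 11 of 50 lower, beside 7.22% of all tested genes. None was higher, and 46 differences were negative (median -0.17). RRP1 (-0.47), EBNA1BP2 (-0.40), the pseudouridine synthase DKC1 (-0.38), the snoRNP core protein NOP56 (-0.36) and the helicase DDX56 (-0.35) fell most on the log2 scale. DKC1 went from 62.2 ± 4.13 to 47.6 ± 4.61 FPKM, with adjusted p = 0.000133. The count ranged from 7 after scaling to equal sums to 22 with a replicate block. Those fits called 341 and 1310 of 11392 tested genes lower. DDX21, a nucleolar helicase, missed the threshold (-0.25 ± 0.0866, adjusted p = 0.0618). Of 73 ribosomal protein genes none was called in either direction by limma, with a median of 0.00. Their medians were -0.08 in dmso, -0.17 in Nucleotide and 0.24 in A77plusNucleotides, and -0.08, 0.02 and 0.09 without the pair of libraries that stood apart. After quantile normalization 28 were called higher and after scaling to equal sums 11. Those fits called 977 and 2401 of 11392 tested genes higher.

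**Figure D2:**
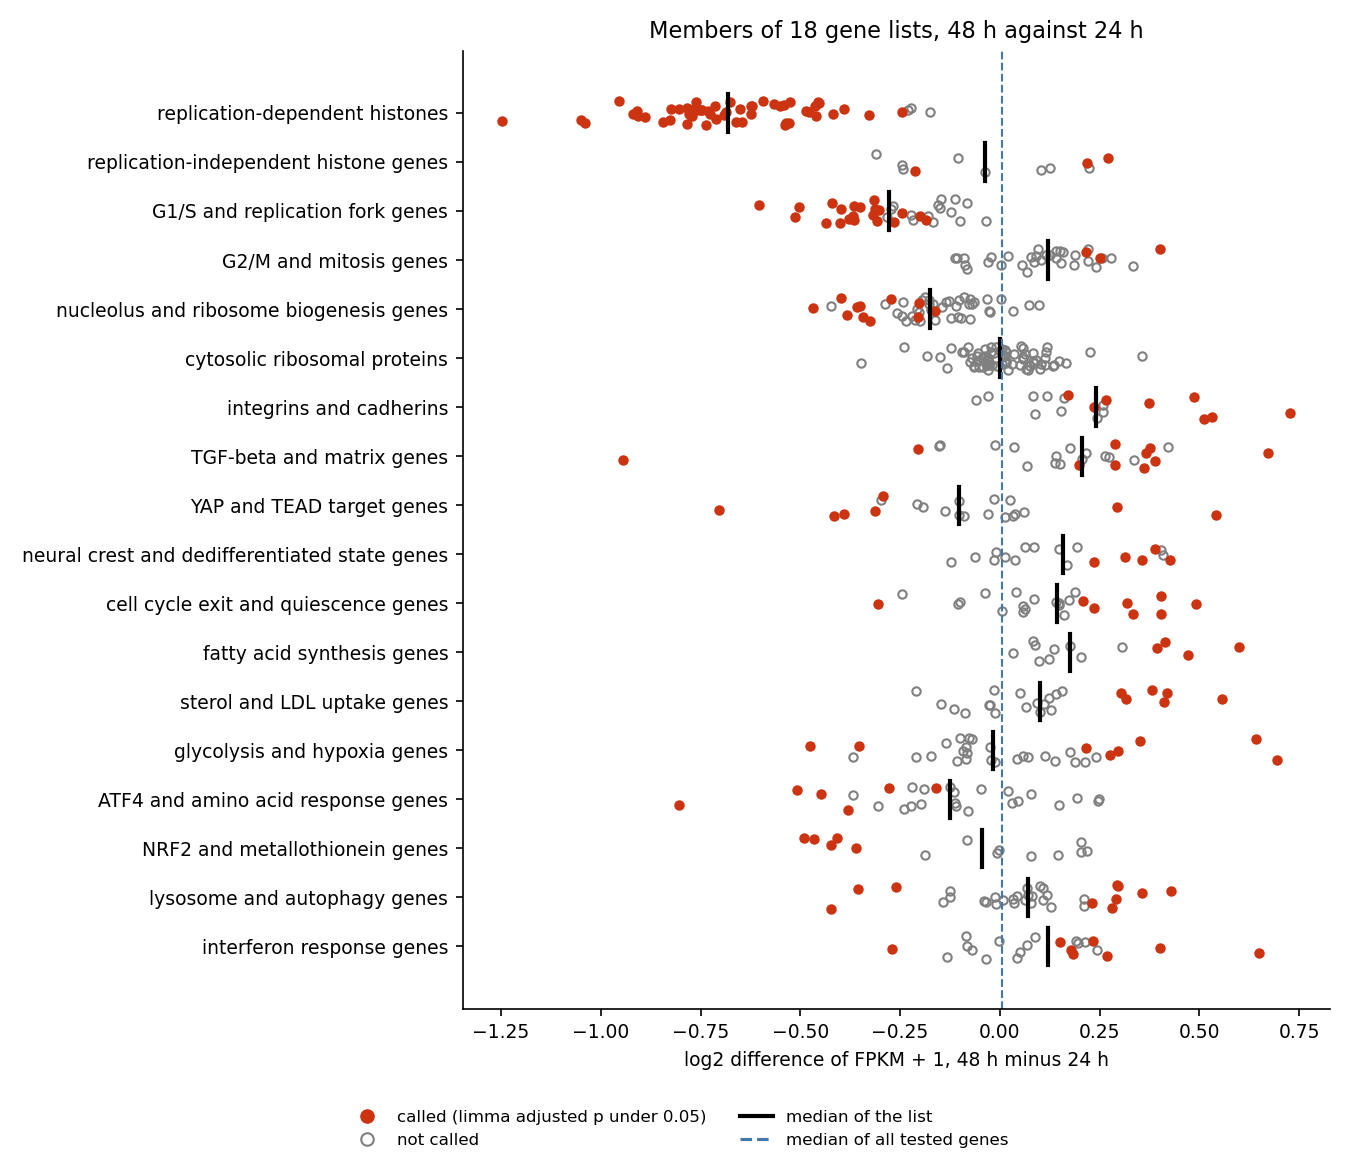
Log2 difference of FPKM + 1, 48 h minus 24 h, for every tested member of 18 gene lists. Red points were called by limma, open points were not, black bars are the list medians and the dashed line is the median of all 11392 tested genes (0.01). The replication-dependent histones lie farthest left with a median of -0.68, followed by the G1/S genes at -0.28.

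Apart from the humanin-like genes described last, LOXL4 had the largest rise among called genes that met the naming rule. LOXL4, a lysyl oxidase that crosslinks collagen and elastin, had 38.8 to 58.3 FPKM at 24 h (median 47.5) and 82.5 to 145 at 48 h (median 103). Its log2 difference was 1.14 ± 0.0947 (limma adjusted p = 1.15e-06), and the times did not overlap. In dmso its FPKM went from 47.4, 38.8 and 48.9 to 103, 82.5 and 102, in Nucleotide from 47.5, 40.03 and 54.8 to 106, 88.5 and 112, and in A77plusNucleotides from 53.2, 39.7 and 58.3 to 115, 101 and 145. A shared direction in all 3 treatments was a condition for naming a gene, so it is not a separate result. MARCKS, an actin-binding substrate of protein kinase C, had 6.59 to 9.16 FPKM at 24 h (median 8.56) and 13.4 to 18.8 at 48 h (median 15.7), a difference of 0.82 ± 0.0513 (adjusted p = 9.83e-08). ITGB3, the integrin β3 subunit, had 33.95 to 44.3 FPKM at 24 h (median 39.7) and 53.6 to 76.00 at 48 h (median 61.3), a difference of 0.73 ± 0.0681 (adjusted p = 3.14e-06). Neither overlapped between times.

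SERPINA3, a secreted inhibitor of chymotrypsin-like proteases, rose by 1.01 from 91.1 ± 15.4 to 185 ± 40.04 FPKM. VGF, a precursor of secreted peptides, rose by 0.97, EEF1A2, an elongation factor of muscle and neurons, by 0.92, and SPRY4, a feedback inhibitor of receptor tyrosine kinase signalling, by 0.81. The SPRY4 value includes a single library at 37.3 FPKM, replicate 3 of Nucleotide at 48 h, above the highest other library at that time (17.6 FPKM), and the difference was 0.64 without it. DMRTA1, a transcription factor, rose by 0.78, AGMO, which cleaves ether lipids, by 0.74, and the matrix protein SPON2 by 0.73. The next in size, named after their values were seen, included the prostaglandin E synthase PTGES (0.73), the actin-severing protein GSN (0.71), the mesenchymal homeobox factor PRRX1 (0.70), the cation channel TRPV2 (0.67) and the vault protein MVP (0.66). GSN went from 76.01 ± 15.3 to 125 ± 27.5 FPKM.

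Among the genes that met the naming rule, which leaves out short RNAs, THBS1, LYPD1 and DKK1 had the largest falls outside the histones. THBS1, thrombospondin 1, a matrix glycoprotein that activates latent TGF-beta, had 186 to 338 FPKM at 24 h (median 205) and 91.8 to 162 at 48 h (median 107). Its difference was -0.95 ± 0.116 (adjusted p = 3.67e-05). In dmso its FPKM went from 195, 186 and 219 to 105, 122 and 107, in Nucleotide from 225, 192 and 190.2 to 104, 112 and 162, and in A77plusNucleotides from 235, 338 and 205 to 101, 119 and 91.8. Every library at 48 h was below every library at 24 h. DKK1, a secreted Wnt inhibitor, had 51.5 to 90.8 FPKM at 24 h (median 71.8) and 24.4 to 52.04 at 48 h (median 41.2), with a small overlap and a difference of -0.83 ± 0.0806 (adjusted p = 3.94e-06). LYPD1 fell by 0.85, from 18.2 ± 2.000 to 9.66 ± 1.43 FPKM. Outside the rule, SLC7A5, the large neutral amino acid transporter, fell by 0.80. The BMP-induced repressors ID3 and ID1 fell by 0.80 and 0.61, the ABL2 kinase by 0.65, and the tropomyosin TPM1 by 0.61 on the log2 scale. SLC7A5 had 67.2 to 106 FPKM at 24 h (median 83.5) and 35.4 to 86.96 at 48 h (median 40.9), and the highest library at 48 h was replicate 3 of Nucleotide.

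**Figure D3:**
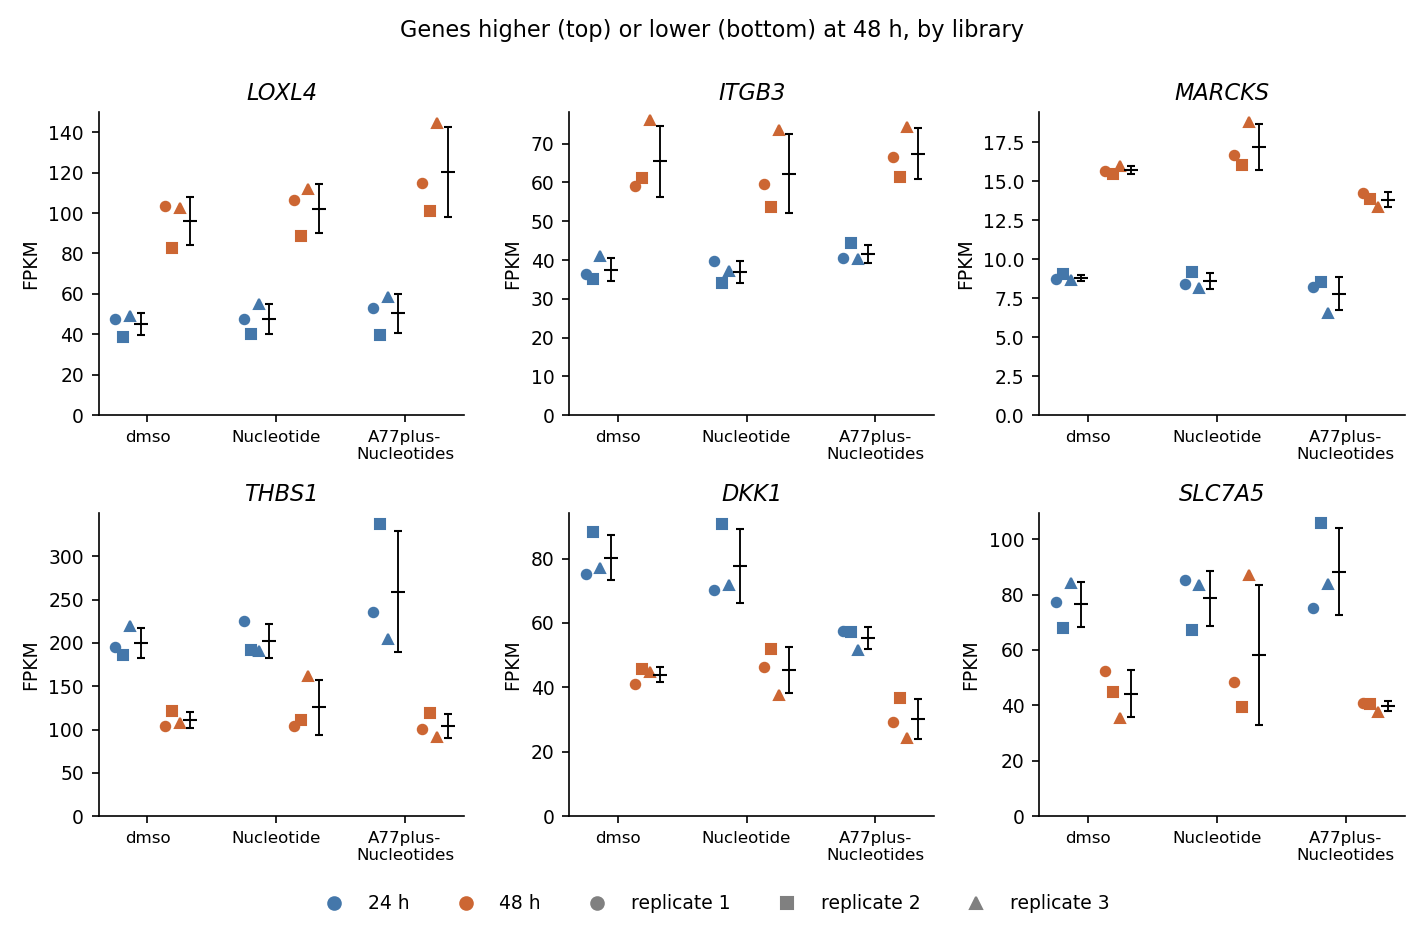
FPKM of 3 genes that were higher at 48 h (LOXL4, ITGB3, MARCKS) and 3 that were lower (THBS1, DKK1, SLC7A5), in every library. Points are libraries (blue 24 h, orange 48 h, shapes are replicate numbers) and the black bar is the mean ± SD of 3. For LOXL4, ITGB3, MARCKS and THBS1 the 9 libraries at each time do not overlap.

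Integrins and cadherins, the receptors that hold cells to matrix and to each other, rose in part. Of 18 tested 8 were higher, beside 9.59% of all tested genes, and none lower, with a median of 0.24. Besides ITGB3, the collagen, laminin and fibronectin receptor subunits ITGA3 (0.53 ± 0.0963), ITGA5 (0.51 ± 0.0761), ITGA1 (0.49 ± 0.0829) and ITGA10 (0.37 ± 0.0554) rose. ITGA5 went from 13.2 ± 1.52 to 19.3 ± 2.42 FPKM, without overlap. ITGB1, the common partner of most of these subunits, was not called (0.15, adjusted p = 0.168). Over the other settings 6 to 12 members were higher.

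In the TGF-beta and matrix list 8 of 25 were higher, beside 9.59% of all tested genes (median 0.21). Another 2 were lower, a share near the 7.22% of all tested genes. The basement membrane genes LAMC1 (0.38) and COL4A1 (0.36) and the collagen-binding protein SPARC (0.29) rose with no overlap between times, and SPARC went from 170.2 ± 5.86 to 208 ± 14.5 FPKM. The matrix glycoprotein TNC (0.39) and the membrane metalloprotease MMP14 (0.37) rose as well. MMP2, the gelatinase that MMP14 activates, rose by 0.67 (adjusted p = 0.0265), a call lost without replicate 2 or 3 of Nucleotide at 24 h. The 2 lower members were THBS1 and the inhibitory SMAD7 (-0.20, adjusted p = 0.0438). The SMAD7 call was lost in dmso and Nucleotide alone (adjusted p = 0.0732) and after scaling to equal sums (-0.13, adjusted p = 0.213). It was also lost on leaving out any 1 library (adjusted p between 0.0523 and 0.0903) other than replicate 2 of any treatment at 24 h, replicate 3 of dmso at 48 h, or replicate 1 or 3 of Nucleotide at 48 h.

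Of 21 YAP and TEAD targets, 5 were lower and 2 higher, where 7.22% of all tested genes were lower and 9.59% higher, so that the higher count was near the background. CTGF, a secreted matricellular protein, had 6.22 to 17.5 FPKM at 24 h (median 7.22) and 2.92 to 11.96 at 48 h (median 4.36), a difference of -0.70 ± 0.217 (adjusted p = 0.0338). That call was lost in dmso and Nucleotide alone (-0.34, adjusted p = 0.286) after scaling to equal sums and with no filter on low values. It was also lost without replicate 1 of A77plusNucleotides or of Nucleotide at 24 h, replicate 3 of dmso at either time, any A77plusNucleotides library at 48 h, or replicate 1 or 2 of Nucleotide at 48 h (adjusted p between 0.0515 and 0.0676). AMOTL2, an angiomotin, fell by 0.42 and ANKRD1, a cytoskeletal repeat protein, by 0.39, from 23.3 ± 1.99 to 17.3 ± 2.199 FPKM and from 3.41 ± 1.16 to 2.34 ± 0.786 FPKM. The LIM protein AJUBA fell by 0.29. NT5E, the ectonucleotidase CD73, rose by 0.54 from 10.1 ± 0.503 to 15.2 ± 1.84 FPKM, and the RNA-binding protein RBMS3 by 0.29, both without overlap.

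The TEAD element GGAATG, searched on both strands, was in the 300-base promoters of all 5 lower members with one in the table, in 3 of 8 not called, and in 16.7% of all promoters. A stretch of 2 of them is shown with the element in capitals (GRCh38.p14, minus strand, chr6:131951436-131951493 for CTGF and chr10:90921184-90921241 for ANKRD1).
CTGF: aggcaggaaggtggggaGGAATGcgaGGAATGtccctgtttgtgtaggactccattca
ANKRD1: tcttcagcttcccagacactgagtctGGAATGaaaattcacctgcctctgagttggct
The CTGF stretch holds the element 2 times, a few bases apart, and the ANKRD1 stretch holds it once. A match of 6 letters is a description of the sequence only.

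Genes of the neural crest and dedifferentiated melanoma state had 5 of 18 members higher and none lower (median 0.16). Among all tested genes 9.59% were higher and 7.22% lower. ZEB1, a repressor of epithelial genes, rose by 0.43 from 2.85 ± 0.585 to 4.14 ± 0.4605 FPKM, and the receptor kinase ERBB3 rose by 0.24. PDGFRB, also counted among fibroblast markers, rose by 0.31, from 0.803 ± 0.169 to 1.25 ± 0.2701 FPKM, without overlap. Over the other settings 2 to 10 members were higher. SOX10, which fixes the melanocyte lineage, was not called (0.40, adjusted p = 0.089). Among 5 tested pigment cell genes 1, the endothelin receptor EDNRB, was higher (0.26), a call that dmso and Nucleotide alone did not give. Of the markers of other cells, KRT14, a basal keratin, fell by 0.60 from 5.57 ± 1.02 to 3.35 ± 0.864 FPKM, and CD68, a lysosomal protein abundant in macrophages, rose by 0.54 from 1.82 ± 0.293 to 3.09 ± 0.435 FPKM.

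Lipid synthesis genes rose in part. All 13 fatty acid synthesis genes had a positive difference and 4 were called higher (median 0.18), beside 9.59% of all tested genes. SCD, the stearoyl-CoA desaturase, had 43.9 to 65.3 FPKM at 24 h (median 49.6) and 68.3 to 103 at 48 h (median 76.4), a difference of 0.60 ± 0.0733 with adjusted p = 3.59e-05, and the times did not overlap. The desaturase FADS1 (0.41), the acetyl-CoA synthetase ACSS2 (0.47) and the acyl-CoA synthetase ACSL3 (0.39) rose too. Of 23 sterol and LDL uptake genes 6 were higher, beside the same 9.59%, and none lower (median 0.10). They were led by SREBF2, the master regulator of the pathway (0.56 ± 0.114), with the cholesterol carrier STARD4 (0.42), DHCR7 (0.41), the squalene synthase FDFT1 (0.38) and MSMO1 (0.32). In dmso and Nucleotide alone 2 sterol genes were higher and 1 lower, and the calls of ACSL3, STARD4, DHCR7 and MSMO1 were lost.

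SREBF2 is the called member whose own promoter held the sterol element (TCACNCCAC on either strand), at chr22:41832946-41833006, plus strand, GRCh38.p14.
SREBF2: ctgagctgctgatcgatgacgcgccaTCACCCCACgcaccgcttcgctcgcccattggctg
The element, in capitals, was in 1 of 5 called members with a promoter, in none of 13 not called, and in 1.39% of all promoters.

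Of 32 glucose metabolism and hypoxia genes, 6 were higher and 2 lower (median -0.02). All tested genes had shares of 9.59% and 7.22%, and the lower share of the list was no larger. PFKFB4, an enzyme that tunes the rate of glycolysis, rose by 0.69 from 7.82 ± 1.16 to 13.2 ± 1.73 FPKM, and the aldolase ALDOC rose by 0.64 from 9.08 ± 1.56 to 14.6 ± 1.85 FPKM. The glucose transporter SLC2A3 (0.28) and the mitophagy receptor BNIP3L (0.35) rose. The peptide hormone ADM (-0.48) and the other glucose transporter of the list, SLC2A1 (-0.35), fell. The hypoxia core ACGTG, short enough to be common, was in 3 of 4 higher members with a promoter, 16 of 22 not called and 24.9% of all promoters.

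Stress programs of amino acid supply and oxidation fell in part. Of 27 ATF4 and amino acid response genes 6 were lower, beside 7.22% of all tested genes, and none higher (median -0.12). SLC7A5 and its heavy chain SLC3A2 (-0.51 ± 0.0967) led, followed by the mitochondrial folate enzyme MTHFD2 (-0.45) and the transcription factor ATF3 (-0.38). SLC3A2 went from 173 ± 28.1 to 120.1 ± 12.8 FPKM. ATF4 itself was not called (-0.22, adjusted p = 0.111). Between 4 and 11 members were lower over the other settings. The ATF4 element TGATGNAA on either strand was in 3 of 5 called members, 3 of 18 not called and 4.46% of all promoters. Of 14 NRF2 and metallothionein genes 5 were lower, beside the same 7.22%, and none higher, though the list's median was -0.04. They were SRXN1 (-0.49) and TXNRD1 (-0.42), which keep thiols reduced and did not overlap between times, the heme oxygenase HMOX1 (-0.47), and GCLM (-0.41) and GCLC (-0.36), the subunits of the first enzyme of glutathione synthesis. TXNRD1 went from 129.6 ± 10.2 to 96.5 ± 9.15 FPKM. The GCLC call was lost after scaling to equal sums.

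In the MAPK output list 2 of 18 were higher, a share near the 9.59% of all tested genes. They were SPRY4 and the phosphatase DUSP4, which rose by 0.61 from 26.7 ± 1.23 to 41.5 ± 4.28 FPKM without overlap. Of 22 interferon response genes 7 were higher and 1 lower (median 0.12). Beside them, 9.59% of all tested genes were higher and 7.22% lower, the latter above the share of the list. The exonuclease ISG20 rose by 0.65, the ISGF3 subunits IRF9 and STAT2 by 0.40 and 0.23, and PARP9 by 0.27, while IRF1 fell by 0.27, a call lost in dmso and Nucleotide alone and after scaling to equal sums. IRF9 went from 1.61 ± 0.192 to 2.45 ± 0.353 FPKM. The interferon element TTTCNNTTT was in 4 of 6 higher members, 8 of 10 not called and 12.6% of all promoters. The higher count ranged from 2 to 11 over the other settings. In the NF-kB list the inhibitor NFKBIA (-0.45) and the chemokine CXCL1 (-0.22) fell, while the chemokine CXCL8 (0.57) rose. The CXCL1 call was lost after scaling to equal sums. Of 27 p53 targets 3 were lower and 1 higher, the kinase PLK2 with -0.47 and the secreted factor GDF15 with 0.46 being the largest. The lower share was near the 7.22% of all tested genes and the higher share below the 9.59%.

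Lysosome and autophagy genes had 7 of 33 higher and 3 lower (median 0.07), beside 9.59% and 7.22% of all tested genes. The lower share was near that background. The acid glucosidase GAA (0.43) and the protease CTSK (0.36) rose, calls that dmso and Nucleotide alone did not give (nor, for CTSK, quantile normalization), while the autophagy receptor SQSTM1 (-0.42) and the galactosidase GLA (-0.36) fell. After scaling to equal sums 15 were higher and 2 lower, where 2401 and 341 of all 11392 tested genes were called. The CLEAR core TCACGTGA was in 1 of 4 higher members, 3 of 16 not called and 1.18% of all promoters. Of 16 unfolded protein response genes 2 were higher, a share not far from the 9.59% of all tested genes. Among them was the disulfide isomerase PDIA4 (0.30).

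In pyrimidine synthesis and salvage, 2 of 21 genes were higher and 2 lower (median -0.12), shares near the 9.59% and 7.22% of all tested genes. The nucleoside transporter SLC29A1 (-0.30) and the uridine-cytidine kinase UCK2 (-0.28) fell, and the transporter SLC29A2 (0.32) and the CTP synthase CTPS2 (0.25) rose. DHODH, the target of A771726, had 6.23 to 9.47 FPKM at 24 h (median 8.404) and 6.98 to 9.12 at 48 h (median 8.29) and was not called (-0.0086 ± 0.0643, adjusted p = 0.955). Without the pair of libraries that stood apart 9 members were lower, where 1505 of 11392 tested genes were. The SLC29A1 call was lost after scaling to equal sums and the CTPS2 call in dmso and Nucleotide alone.

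The 3 treatments share no library across their 48 h against 24 h contrasts, though their tests share the same estimate of the spread. Within dmso 155 genes were higher (1.36%) and 151 lower (1.33%), within Nucleotide 131 (1.15%) and 115 (1.01%), and within A77plusNucleotides 251 (2.2%) and 75 (0.658%). Same-numbered dmso libraries deviated together, and with the replicate number as a block 397 dmso genes were higher and 350 lower. Leaving out single libraries moved the total of 306 in dmso to between 58 and 554, of 246 in Nucleotide to between 71 and 385, and of 326 in A77plusNucleotides to between 90 and 656. The 155 genes higher in dmso were all positive in both other treatments, with medians of 0.45 in each, and 94 of them were called in Nucleotide and 93 in A77plusNucleotides. Of the 151 lower in dmso, all were negative in Nucleotide (median -0.44, 81 called) and 144 in A77plusNucleotides (median -0.28, 34 called). Among 11220 genes at 0 in no library, 85.1% had the same sign in dmso and Nucleotide. For dmso and A77plusNucleotides that share was 56.7%. Of the 1916 genes called over all 18 libraries, 1896 had the same sign in the 3 treatments, a match that the joint test itself selects for. The difference between treatments passed its own F test in limma for 3 genes (0.0263%), each listed at 0 in whole groups, and 233 genes had an unadjusted p under 0.05. Across 11220 genes the differences correlated between dmso and Nucleotide with Pearson r = 0.861, between dmso and A77plusNucleotides with r = 0.339, and between Nucleotide and A77plusNucleotides with r = 0.205. Without the pair of libraries that stood apart the values were 0.769, 0.597 and 0.815, so the 2 low correlations rose without those libraries. Genes are not independent replicates, and these values are a description.

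**Figure D4:**
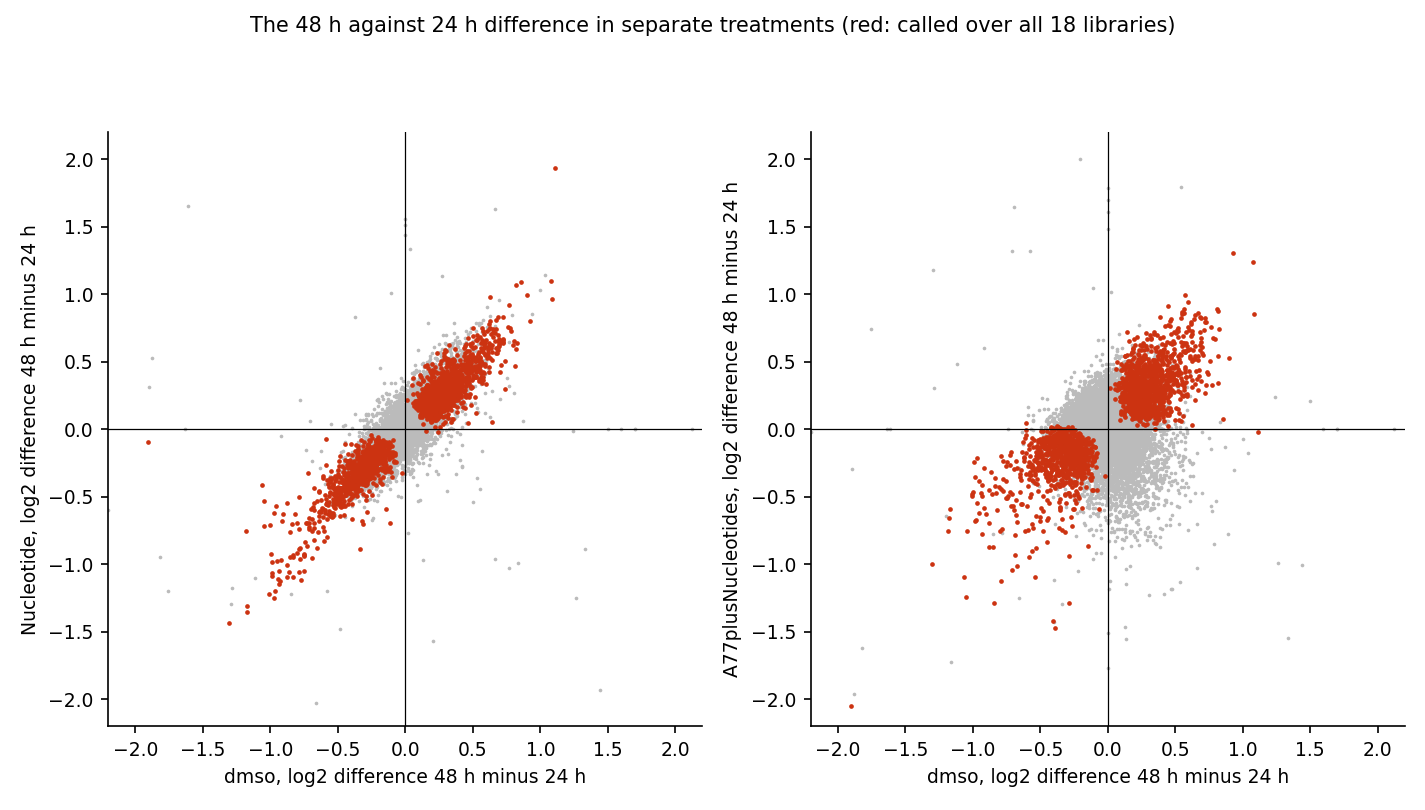
Log2 difference, 48 h minus 24 h, in dmso (x axis) against Nucleotide (left) and A77plusNucleotides (right). Each point is 1 of 11389 genes, red where called over all 18 libraries, and 120 genes lie outside the plotted range in at least 1 treatment. The 155 genes called higher within dmso, which are not marked apart, were positive in both other treatments. The grey cloud in the right panel shows the low overall correlation of 0.339.

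The largest log2 differences among all named genes belonged to humanin-like genes, nuclear near-copies of the mitochondrial 16S ribosomal RNA gene, whose reads cannot be told from that RNA with certainty. MTRNR2L2, MTRNR2L9, MTRNR2L8 and MTRNR2L1 were called with log2 differences of 4.26, 4.14, 2.56 and 1.98. The 9 libraries at 24 h held MTRNR2L2 at 0.736 to 3.32 FPKM. At 48 h the values were 1011, 690.2 and 28.1 in dmso, 89.8, 56.7 and 2.40 in Nucleotide, and 8.40, 16.2 and 18.7 in A77plusNucleotides. Libraries of the same group therefore differed by more than 10-fold in dmso and Nucleotide, and replicate 3 was the lowest in both. MTRNR2L8 had 99.5, 70.7 and 2.86 FPKM in dmso at 48 h, in the same order. MTRNR2L3 and MTRNR2L4, other members of the family, stayed under 1 FPKM in every library at both times. MTRNR2L6, too low to be tested, was at 0.0211 FPKM or less in every library at 24 h. At 48 h it had 3.17, 2.01 and 0.166 FPKM in dmso, 0.370, 0.210 and 0.0598 in Nucleotide, and 0.0203, 0.0208 and 0.0206 in A77plusNucleotides. How much mitochondrial ribosomal RNA each library retained was not tested.

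**Figure D5:**
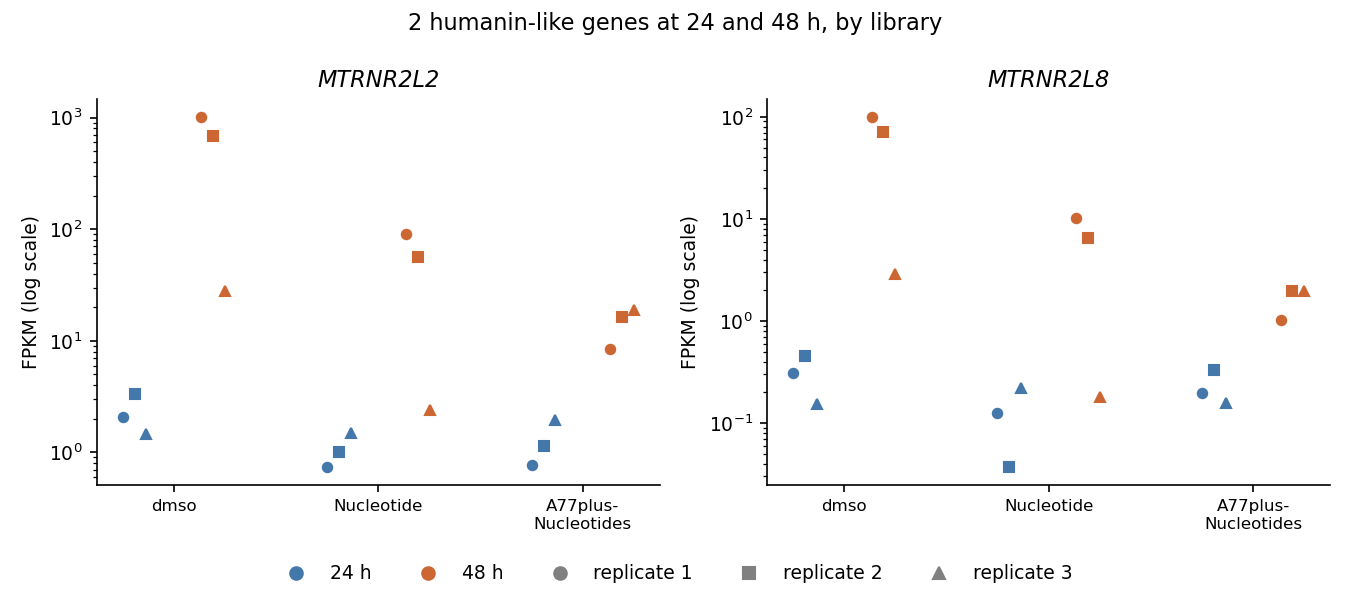
FPKM of MTRNR2L2 and MTRNR2L8 on a log scale in every library (blue 24 h, orange 48 h, shapes are replicate numbers). MTRNR2L2 runs from 0.736 to 3.32 at 24 h and from 2.40 to 1011 at 48 h.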

How the data were processed

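RNA of A375 cells was measured after ribosomal RNA depletion with RiboZero Gold and NEBNext Ultra library preparation, per the labels' protocols. Per the submitters' processing notes, cutadapt (no version stated), TopHat2 2.0.11 and Cufflinks 2.2.1 were used with hg19. The gene annotation, strand setting and filters are not stated there or in the labels, so reads of overlapping or antisense genes cannot be told apart. The authors deposited FPKM per gene and library, without counts, for 25268 genes. No depth, counting interval or count test is possible. Sums of FPKM differ between libraries, so a gene's value also depends on what else its library holds.

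Log2 values were computed from the deposited FPKM after adding 1, which understates changes of low genes. Genes averaging 1 FPKM or more over the 18 libraries were tested (11392). The fit was limma 3.58.1 in R 4.3.3 with treatment and time as terms. Means of the 6 groups were fitted for the contrasts within treatments and for the F test of their difference. P-values were Benjamini-Hochberg adjusted over all tested genes. Library measures were compared by a two-sided exact permutation within treatments (8000 arrangements). The fit was tested on simulated data for 48 h against 24 h over 11392 genes, with 100 changed genes of each size. A true log2 difference of 0.5 was called in 81% of these and a true difference of 1 in 99%, beside 9 false calls. The changed genes were all drawn from the better expressed ones, so these rates do not cover low genes. Scatter was drawn independently for each gene and library, so shifts of whole libraries were not simulated.

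The members, lists and tests were chosen with earlier results of these data known, and the list of replication-independent histone genes was added after the values were seen. Named genes were the 14 largest rises and 14 largest falls among called genes that averaged 5 FPKM or more at the higher time, the same sign in all 3 treatments and no library at 0, leaving out symbols of short RNAs and clones. From each list up to 5 called members by size and up to 2 not called by mean FPKM could be named, and DDX21, DHODH and CDKN1A were named whatever their values. Chosen outside the rule, after their values were seen, were AJUBA, COL4A1, ORC1, PCNA, RBMS3, SLBP, SLC2A3, SMAD7, SPARC, TXNIP, the 4 histones whose sequences are printed, the genes at 0 in whole groups and the next rises and falls so named in the text.

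Among 153 pairs of libraries at most 0.0117% of values were identical, so no library was counted as a repeat. Replicate numbers shared by the times deviated together in dmso (correlations 0.13, 0.30 and 0.13 over genes). This evidence came from the values and not from the labels. The other treatments were mixed, with -0.12, 0.21 and 0.01 in Nucleotide and -0.09, -0.03 and 0.11 in A77plusNucleotides. The main fit had no replicate block, and the alternative with a block paired same-numbered libraries in every treatment. Alternatives changed the pseudocount, filter, scaling, libraries and block. Motifs were searched in RefSeq promoters of GRCh38.p14 by symbol.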

Additional observations from a re-analysis of the deposited data

Results flagged for a closer look

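The difference between 48 and 24 h itself differed between treatments for PLCG2, EEF1A1 and ANKRD28 by limma's F test, and each was listed at 0 in all 3 libraries of at least 1 group. PLCG2, a phospholipase (adjusted p = 7.76e-19), was listed at 0 in every library except those of A77plusNucleotides at 24 h, which had 1175, 991 and 1141 FPKM. EEF1A1, the common elongation factor (adjusted p = 3.70e-15), was listed at 0 in the 3 libraries of A77plusNucleotides at 48 h and had 2044 to 3219 FPKM in the other 15. ANKRD28, an ankyrin repeat protein (adjusted p = 7.93e-14), was listed at 0 in Nucleotide at 24 h and A77plusNucleotides at 48 h and had 16.8 to 24.6 FPKM elsewhere. EEF1A1 is used by every growing cell, so a listed 0 can be a failed estimate, and no fold is given. When zeros of well expressed genes were treated as missing, no gene passed this test, and the smallest adjusted p among genes without a library at 0 was 0.940.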

How the results depend on the processing

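Counts of higher and lower genes (1093 and 823) were 496 and 604 at a minimum mean of 5 FPKM, 1736 and 1310 with a replicate block, 2401 and 341 after scaling to equal sums, 1691 and 1505 without the 2 libraries that stood apart (an alternative added after the data were seen), and 8 and 5 with all 24 libraries. That last fit has a larger standard error for the same differences. Leaving out 1 library gave 921 to 1466 higher and 630 to 1351 lower. The replicate block changed the numbers of calls within dmso, Nucleotide and A77plusNucleotides to 747, 624 and 927. All 24 libraries gave 0, 1 and 3, a minimum of 5 FPKM 186, 146 and 165, and no filter 493, 420 and 520. Without the 2 libraries that stood apart dmso had 1127, and after scaling to equal sums Nucleotide had 617. Leaving out 1 library gave 58 to 554 in dmso, 71 to 385 in Nucleotide and 90 to 656 in A77plusNucleotides. In each treatment at least 4 of its own libraries moved the count by over 1.5 times, and the highest counts came without replicate 3 of Nucleotide at 48 h (dmso, A77plusNucleotides) or replicate 2 of A77plusNucleotides at 24 h (Nucleotide). The F test between treatments called 3 genes under every alternative run for it except zeros set to missing, which gave 0 (limma). It was not run on dmso and Nucleotide alone. The number of genes at 0 was 124 lower at 48 h over all genes but 5.56 higher over tested genes (exact permutation p = 0.364 and 0.119). Of the called genes named, none changed sign under any alternative. Of those not called, CDKN1A was 0.021 after scaling to equal sums, and DHODH was 0.11 there and ran from -0.050 to 0.023 over the fits without 1 library. The causes were not tested. Depth is unknown, so counting error of low genes could not be set apart.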
